A study of Homo sapiens with 24 samples.

Results

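The question addressed was which mature miRNAs respond to RELB knockdown differently in spheroid culture and in adherent culture of OV90 cells, an established epithelial ovarian cancer line. For each miRNA, the log2 fold change between shRELB and shNeg libraries in adherent culture was subtracted from that in spheroid culture. The difference is called the interaction value, and a value of 1 means that the fold change was 2 times higher in spheroids. All miRNAs with enough counts were members of the comparison, 905 of the 2656 in the deposited table, measured in 16 of the 24 libraries of the series.

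The 16 libraries formed 4 groups of 4 replicates: adherent shNeg, adherent shRELB, spheroid shNeg and spheroid shRELB. All cells carried a stably expressed, doxycycline-inducible shRNA, a negative control in the shNeg groups and one against RELB in the shRELB groups, and all received doxycycline at 1 µg/ml for 72 h. The labels give the genotype of the shNeg samples as wild type, whereas their titles name the control shRNA. Adherent cells were kept in RPMI with tetracycline-free fetal calf serum, and spheroids in low-attachment vessels in DMEM-F12 with serum replacement, insulin-transferrin-selenium, albumin, EGF and FGF, so attachment and medium cannot be told apart. The sources used here do not say whether the replicates were separate cultures, so the p-values measure the spread between libraries, which may be technical. MiR-seq does not read the RELB transcript, and the degree of silencing cannot be seen in these libraries. The study reports that it checked the silencing in OV90 cells by Western blot, and it gives an estimate of the reduction in RELB expression. The remaining 8 libraries, with an shRNA against RELA, entered the estimate of the spread, 1 further comparison and the RELA interaction values set beside it.

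RELB is the transcription factor of the non-canonical NF-κB pathway, which is switched on by a subset of tumor necrosis factor family receptors through NIK and the processing of p100 to p52. RELA drives the canonical pathway. A miRNA is cut from a hairpin precursor by Drosha and Dicer, and either arm of the hairpin (5p or 3p) can be loaded into an Argonaute protein. Target recognition rests chiefly on the seed, bases 2 to 8 of the mature strand, so miRNAs with the same seed share many targets. Spheroid culture in serum-poor medium is used in ovarian cancer to enrich for tumor-initiating cells (TICs).

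The mature sequences of miRNAs with higher interaction values are shown first, because several of them shared a seed. They are written 5′ to 3′ with the seed in capitals, and were taken from RefSeq (GRCh38.p14). The first 7 are 3 pairs with a common seed and miR-302b-3p. The last 5 belong to the let-7 family, and let-7b-5p is the member that went the other way.
miR-26b-5p: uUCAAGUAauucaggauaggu
miR-26a-5p: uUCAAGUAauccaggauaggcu
miR-146b-5p: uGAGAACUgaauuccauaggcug
miR-146a-5p: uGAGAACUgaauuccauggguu
miR-30a-3p: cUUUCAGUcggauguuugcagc
miR-30e-3p: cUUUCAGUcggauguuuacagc
miR-302b-3p: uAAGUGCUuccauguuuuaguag
let-7f-5p: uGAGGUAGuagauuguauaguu
miR-98-5p: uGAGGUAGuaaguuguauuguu
let-7g-5p: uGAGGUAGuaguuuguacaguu
let-7a-5p: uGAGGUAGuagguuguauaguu
let-7b-5p: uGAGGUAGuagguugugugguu

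The sequences of miRNAs with lower interaction values are shown for their base composition and, for miR-92b, as both arms of a single hairpin.
miR-139-3p: uGGAGACGcggcccuguuggagu
miR-1275: gUGGGGGAgaggcuguc
miR-1224-5p: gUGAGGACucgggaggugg
miR-92b-5p: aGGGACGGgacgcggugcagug
miR-92b-3p: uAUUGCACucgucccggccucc
miR-328-3p: cUGGCCCUcucugcccuuccgu
miR-509-3p: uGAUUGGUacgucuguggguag

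The hairpin of miR-26b lies at chr2:218402646-218402722 (plus strand) in an intron of CTDSP1, and that of miR-146b at chr10:102436512-102436584 (plus strand). The hairpin of miR-30a lies at chr6:71403551-71403621 (minus strand) in an intron of LINC00472, and that of miR-302b at chr4:112648485-112648557 (minus strand) in an exon of MIR302CHG. The mature let-7f-5p has 2 hairpins in the table, at chr9:94176347-94176433 (plus strand) in an exon of MIRLET7A1HG and at chrX:53557192-53557274 (minus strand) in an intron of HUWE1, whose intron also holds the hairpin of miR-98 at chrX:53556223-53556341 (minus strand). Of the lower set, miR-139 lies at chr11:72615063-72615130 (minus strand) in an intron of PDE2A, miR-1275 at chr6:33999972-34000051 (minus strand), miR-1224 at chr3:184241405-184241489 (plus strand) in an intron of VWA5B2, miR-92b at chr1:155195177-155195272 (plus strand) in an exon of THBS3-AS1 and miR-328 at chr16:67202321-67202395 (minus strand). The same mature miR-509-3p comes from 3 neighbouring hairpins on the X chromosome, that of MIR509-1 at chrX:147260532-147260625 (minus strand). Positions are on GRCh38.p14, with genes on the same strand from GENCODE.

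Library totals ran from 959134 to 6624177 counts in the 16 libraries, lowest in the spheroid shNeg group (959134 to 1580255) against 1861232 to 3580932 in spheroid shRELB and 3797176 or more in adherent culture. Spheroid shNeg replicate 1 stood apart from its group, with 432 miRNAs detected against 813 to 885 in the other 3, so the main results are also given without it. A count of 0 allows up to 3 counts, or 0.860 to 2.29 CPM (library-size-scaled counts, normalised by TMM as edgeR gives them) in spheroid and 0.497 to 0.800 CPM in adherent libraries. Such limits cover counting error only. The summed level of 6 epithelial miRNAs was 3222 to 16340 CPM, with miR-200c-3p the most abundant, and the 4 leukocyte markers summed to at most 27.4 CPM. The liver marker miR-122-5p was at 13730 to 23900 CPM in all 4 groups.

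RELB knockdown had a different effect in the 2 cultures for 77 of 905 miRNAs (8.51%), at an FDR below 0.01 and a difference over 2-fold in edgeR's quasi-likelihood test. Of these, 42 had a higher value in spheroids (4.64% of all tested) and 35 a lower value (3.87%). The higher set included let-7f-5p, let-7a-5p, miR-26b-5p, both miR-146 guide strands and miR-302b-3p, and the lower set miR-139-3p, miR-1275, miR-92b-5p and miR-509-3p. Unadjusted p-values were below 0.05 for 256 miRNAs. Without spheroid shNeg replicate 1, 86 of 905 were called (9.5%), 46 higher and 40 lower, of which 72 were among the 77. The 5 that lost the call were miR-3662, miR-184, miR-1306-5p, miR-1269a and let-7d-3p, and no called value changed sign. In bulk RNA, fewer cells with a miRNA and less of it per cell cannot be told apart.

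The split between higher and lower calls depended on the scaling. The median interaction value over all 905 miRNAs was 0.15 with TMM and 0.02 without spheroid shNeg replicate 1. With median-ratio size factors the median was 0.02 and the calls were 36 higher and 50 lower. With library totals it was -0.26, with 17 higher and 72 lower, and with scaling to miR-30e-5p it was -0.18, with 20 higher and 46 lower. None of the 77 called values changed sign under these 3 scalings, and 71, 52 and 53 of them kept the call.

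In the higher set, the common pattern was a rise with RELB knockdown in spheroids beside little change or a decrease in adherent cells. Estimates were above 0 in spheroids and below 0 in adherent culture for 30 of 42, with a median log2 fold change of 1.59 in spheroids and -0.40 in adherent cells. A fold change over 2 was found in spheroids alone for 25, in adherent culture alone for 4, in both with the same sign for 5, in both with opposite signs for 1 and in neither for 7. In the lower set, 23 of 35 had estimates below 0 in spheroids and above 0 in adherent culture, with medians of -1.29 and 0.75, and the corresponding counts were 19, 10, 2, 1 and 3. The spheroid shNeg group had the lowest mean of the 4 groups for 40 of the 42 higher miRNAs, against 39.3% of all miRNAs tested, and the highest for 27 of the 35 lower miRNAs, against 28.5%. These shares describe the contrast that chose the miRNAs and were not tested.

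**Figure D1:**
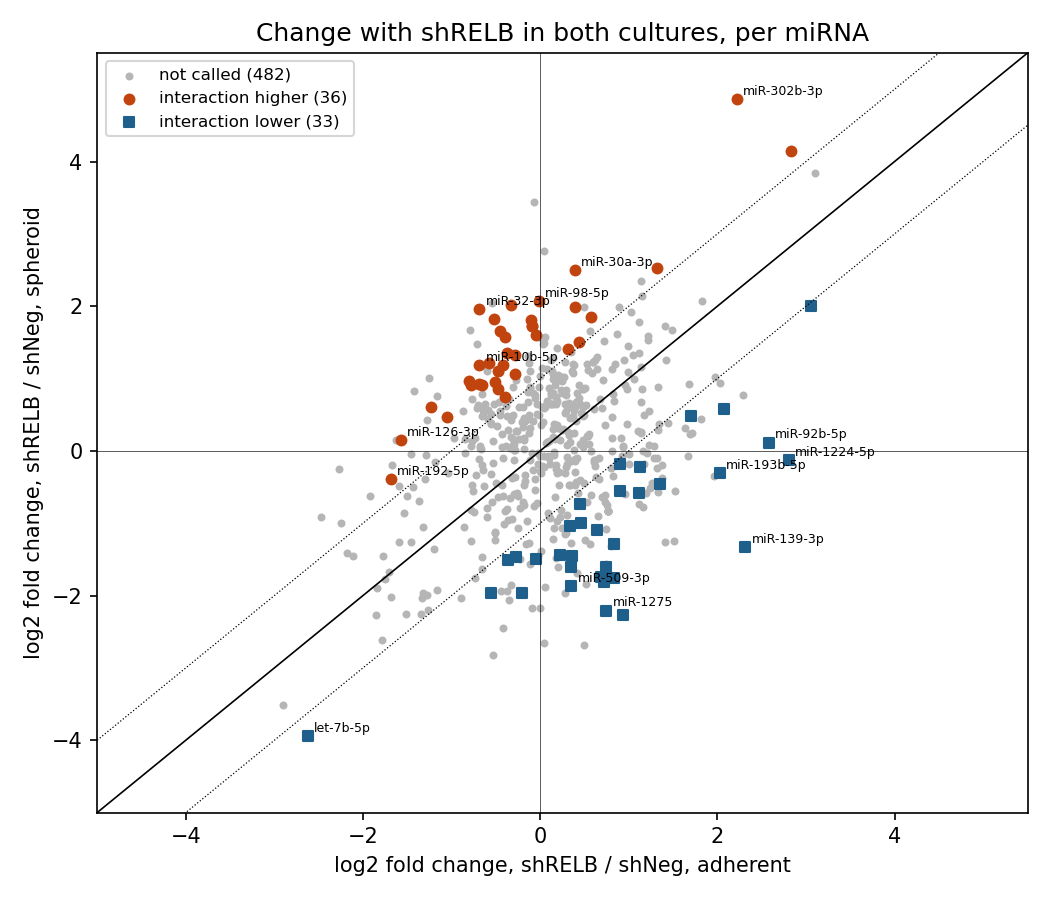
Log2 fold change between shRELB and shNeg libraries in adherent culture (x axis) and spheroid culture (y axis), 1 point per miRNA, for the 551 miRNAs in which no group had 3 counts or fewer in every library. Called miRNAs lie beyond the dotted lines at a 2-fold difference, 36 above the diagonal and 33 below it, and most of those above it lie left of 0 on the x axis, as did 30 of all 42 higher miRNAs.

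miR-26b-5p was the most abundant of the 10 higher miRNAs named, and restrains growth in several tumours. In spheroids, miR-26b-5p stood at 1024, 2661, 3493 and 3159 CPM in shNeg replicates 1 to 4 and at 7392, 7266, 10667 and 11081 CPM in the shRELB replicates. Adherent libraries held 31258, 30821, 29891 and 27133 CPM with shNeg and 22046, 20616, 19817 and 20379 CPM with shRELB. shRELB libraries were all higher in spheroids and all lower in adherent cells, where the change did not pass the test (FDR 0.125, edgeR). The log2 fold change was 1.82 ± 0.23 in spheroids and -0.52 ± 0.22 in adherent cells, and the interaction value was 2.34 ± 0.32 (SE, with an FDR of 1.27e-05 in the edgeR quasi-likelihood test), or 2.08 (FDR 6.59e-09, edgeR) without spheroid shNeg replicate 1. Its seed partner miR-26a-5p had an interaction value of 1.69 ± 0.35 (SE, with an FDR of 7.41e-04 in the edgeR quasi-likelihood test), and lost the call with library totals (1.27).

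miR-146b-5p targets the adaptor proteins IRAK1 and TRAF6 upstream of NF-κB. In spheroids, miR-146b-5p stood at 107, 96.2, 128 and 106 CPM in shNeg replicates 1 to 4 and at 203, 273, 404 and 506 CPM in the shRELB replicates. Adherent shNeg cells had 567, 471, 488 and 492 CPM and adherent shRELB cells 399, 371, 356 and 352 CPM. Every spheroid shRELB library exceeded every spheroid shNeg library, and every adherent shRELB library was below every adherent shNeg library. The interaction value was 2.11 ± 0.30 (SE, with an FDR of 1.27e-05 in the edgeR quasi-likelihood test), and 2.10 without replicate 1. The sister guide strand miR-146a-5p, an established NF-κB target gene product with the same seed, was far more abundant, at 11077, 12808, 15896 and 15556 CPM in spheroid shNeg and 34833, 38946, 60836 and 65808 CPM in spheroid shRELB. Adherent libraries of miR-146a-5p held 34252, 29056, 32466 and 31708 CPM with shNeg and 49072, 45881, 48893 and 46483 CPM with shRELB. shRELB libraries were higher in both cultures without overlap. Its interaction value was 1.28 ± 0.24 (SE, with an FDR of 3.15e-04 in the edgeR quasi-likelihood test). It was 0.86 scaled to library totals and 0.89 scaled to miR-30e-5p, and called in neither.

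The let-7 family, which represses RAS, HMGA2 and MYC, held 4 of the higher calls and 1 of the lower ones among its 9 guide strands. Of all miRNAs tested, 4.64% were called higher and 3.87% lower. In spheroids, let-7f-5p stood at 4580.5, 3042, 3134 and 2663 CPM in shNeg replicates 1 to 4 and at 6548, 7584, 13625 and 12279 CPM in the shRELB replicates. In adherent cells let-7f-5p was at 17169, 15662, 14896 and 14865 CPM with shNeg and 12382, 10066, 13086 and 11853 CPM with shRELB. Libraries of the 2 shRNAs did not overlap in either culture, with shRELB higher in spheroids and lower in adherent cells, although the adherent change did not pass the test (FDR 0.206, edgeR). Its interaction value was 1.98 ± 0.28 (SE, with an FDR of 1.27e-05 in the edgeR quasi-likelihood test), and 2.17 without replicate 1.

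In spheroids, miR-98-5p stood at 77.0, 163, 193 and 155 CPM in shNeg replicates 1 to 4 and at 483, 561, 933 and 493 CPM in the shRELB replicates. Adherent values of miR-98-5p were 687, 794, 619 and 567 CPM with shNeg and 694, 552, 724 and 674 CPM with shRELB, and these 2 groups overlapped. For miR-98-5p the interaction value was 2.08 ± 0.34 (SE, with an FDR of 5.25e-05 in the edgeR quasi-likelihood test). The abundant let-7a-5p stood at 55211, 56319, 57678 and 49754 CPM in spheroid shNeg and 101100, 88658, 92913 and 83077 CPM in spheroid shRELB libraries. It was at 86485, 80195, 81872 and 80284 CPM in adherent shNeg and 64188, 61102, 62529 and 61791 CPM in adherent shRELB libraries. The spheroid shRELB group had the highest mean of the 4 and the spheroid shNeg group the lowest, with an interaction value of 1.14 ± 0.19 (SE, with an FDR of 5.08e-05 in the edgeR quasi-likelihood test). For let-7g-5p the value was 1.61 ± 0.31 (SE, with an FDR of 3.30e-04 in the edgeR quasi-likelihood test).

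let-7b-5p fell with RELB knockdown in both cultures, and more in spheroids. In spheroids, let-7b-5p stood at 6197, 3572, 3653 and 3149.7 CPM in shNeg replicates 1 to 4 and at 305, 287, 259 and 225 CPM in the shRELB replicates. Adherent libraries of let-7b-5p were at 1245, 1156, 1328 and 1334 CPM with shNeg and at 189.7, 230.2, 187 and 215 CPM with shRELB. The spheroid shNeg group was the highest, and every shRELB library lay below every shNeg library of either culture. The log2 fold change was -3.95 ± 0.20 in spheroids and -2.62 ± 0.19 in adherent cells, with an interaction value of -1.32 ± 0.25 (SE, with an FDR of 3.15e-04 in the edgeR quasi-likelihood test). Its hairpin lies at chr22:46113686-46113768 (plus strand) in an exon of MIRLET7BHG, which also holds 1 of the 3 let-7a hairpins in the table, at chr22:46112749-46112822 (plus strand). The other 4 members, let-7c-5p, let-7d-5p, let-7e-5p and let-7i-5p, had values of 0.36, 0.65, 0.60 and 0.58 and were not called. The family median was 0.65, against 0.15 for all miRNAs. Of the 5 called, let-7b-5p kept its sign and call under each scaling tried, let-7f-5p, let-7g-5p and miR-98-5p kept theirs with median-ratio factors, library totals and miR-30e-5p, and let-7a-5p kept its sign but not its call under those 3. With a smooth GC trend removed from each library, let-7a-5p turned to -0.26, let-7f-5p was at 0.02, let-7g-5p at 0.49 and miR-98-5p at 0.68, and none of these 4 was called. The family then had 0 higher calls and 1 lower call, 3 of 9 values above 0 and a median of -0.26.

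miR-30a-3p is the 3p arm of a hairpin from a family that restrains epithelial-to-mesenchymal transition. In spheroids, miR-30a-3p stood at 9.54, 13.0, 12.3 and 10.5 CPM in shNeg replicates 1 to 4 and at 57.5, 59.9, 68.4 and 72.3 CPM in the shRELB replicates. Adherent levels of miR-30a-3p were 39.8, 40, 49.3 and 43.3 CPM with shNeg and 53.5, 59.4, 54.6 and 59.0 CPM with shRELB. shRELB libraries were higher in both cultures without overlap, by 2.50 ± 0.24 in spheroids and 0.39 ± 0.20 in adherent cells on the log2 scale. The adherent change did not pass the test (FDR 0.23, edgeR), and its interaction value was 2.11 ± 0.31 (SE, with an FDR of 1.62e-05 in the edgeR quasi-likelihood test), or 2.04 without replicate 1. The 5p arm of the hairpin, miR-30a-5p, had a value of 1.06 ± 0.28 (SE, with an FDR of 0.00716 in the edgeR quasi-likelihood test). Of 11 members of the miR-30 family tested, 4 were called higher and none lower, against 4.64% and 3.87% of all miRNAs. The others called were miR-30c-5p (1.62) and miR-30e-3p (1.60). The family median was 1.13, against 0.15 for all miRNAs, and miR-30d-5p, the most abundant member, was at -0.11. With library totals, miR-30a-3p alone kept the call. It was also the only 1 of the 7 members with a GC value called with the GC trend removed.

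miR-302b-3p belongs to a cluster known for its expression in embryonic stem cells. In spheroids, miR-302b-3p stood at 0.733, 3.82, 3.59 and 0 CPM in shNeg replicates 1 to 4 and at 63.3, 58.9, 88.4 and 40.2 CPM in the shRELB replicates. Adherent levels of miR-302b-3p were 7.79, 11.2, 4.66 and 5.16 CPM with shNeg and 27.3, 34.4, 41.3 and 30.0 CPM with shRELB. shRELB libraries were the higher ones in both cultures, by 4.86 ± 0.49 on the log2 scale in spheroids and 2.22 ± 0.37 in adherent cells. Its interaction value was 2.64 ± 0.62 (SE, with an FDR of 0.00283 in the edgeR quasi-likelihood test), and 2.37 without replicate 1. It missed the call without spheroid shRELB replicate 3, at 2.47 (FDR 0.0115, edgeR). Spheroid shNeg counts of miR-302d-3p were at or under 3 in every library, and its interaction is a limit, at least 2.91-fold higher in spheroids. The more abundant miR-302a-5p had a value of 1.32 ± 0.30 (SE, with an FDR of 0.00219 in the edgeR quasi-likelihood test). In all, 3 of 8 tested members of the miR-302 and miR-371 to miR-373 clusters were called higher and none lower. Of all miRNAs, 4.64% were called higher and 3.87% lower. Of 16 members listed, only the 8 tested passed the count filter, which a high level in a single group can meet. Their median was 1.98, against 0.15 over all miRNAs, and this difference was not tested. It includes rare members such as miR-302c-3p, at 4.04 on a mean of 1.60 CPM and not called. Only miR-302d-3p kept the call with library totals, with miR-30e-5p and with the GC trend removed.

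Both arms of miR-10b, whose hairpin lies in the HOXD cluster, were called. In spheroids, miR-10b-5p stood at 319, 272, 362 and 375 CPM in shNeg replicates 1 to 4 and at 492, 634, 933 and 952 CPM in the shRELB replicates. Adherent shNeg cells had 2007, 1930, 2002 and 1880.5 CPM and adherent shRELB cells 1206, 1061, 1376 and 1217 CPM. shRELB libraries were all higher in spheroids and all lower in adherent cells. The log2 fold change was 1.181 ± 0.21 in spheroids and -0.69 ± 0.21 in adherent cells, and the interaction value 1.87 ± 0.30 (SE, with an FDR of 4.27e-05 in the edgeR quasi-likelihood test). The rarer miR-10b-3p stood at 0, 7.64, 21.5 and 19.0 CPM in spheroid shNeg and 34.8, 47.9, 55.3 and 63.7 CPM in spheroid shRELB libraries, with an interaction value of 2.36 ± 0.54 (SE, with an FDR of 0.00219 in the edgeR quasi-likelihood test). Its count was 0 in spheroid shNeg replicate 1, and the value was 1.96 without that library. miR-10b-3p lost the call with library totals (1.93) and with the GC trend removed (1.55).

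miR-454-3p, of the miR-130/301/454 seed group, also rose with RELB knockdown in spheroids. In spheroids, miR-454-3p stood at 35.2, 79.4, 114 and 94.1 CPM in shNeg replicates 1 to 4 and at 197, 231, 358 and 344 CPM in the shRELB replicates. Adherent levels were 924, 1142, 1012 and 879 CPM with shNeg and 829, 786, 1114 and 958 CPM with shRELB, and overlapped. The interaction value of miR-454-3p was 1.90 ± 0.40 (SE, with an FDR of 8.54e-04 in the edgeR quasi-likelihood test), and 1.66 without replicate 1.

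miR-32-3p had a high estimate on few counts. In spheroids, miR-32-3p stood at 0, 0.764, 1.54 and 4.21 CPM in shNeg replicates 1 to 4 and at 3.16, 6.65, 6.05 and 9.46 CPM in the shRELB replicates. Its adherent levels were 27.5, 28.8, 20.4 and 23.9 CPM with shNeg and 15.4, 16.6, 16.6 and 13.9 CPM with shRELB. The spheroid groups overlapped, since shNeg replicate 4 exceeded shRELB replicate 1. The interaction value was 2.64 ± 0.68 (SE, with an FDR of 0.00576 in the edgeR quasi-likelihood test), it was 3.57 without spheroid shNeg replicate 4, and the call was lost in 10 of the 16 cases in which 1 library was left out. In those 10 cases the value stayed between 2.44 and 2.73 with an FDR of 0.0101 to 0.0197 (edgeR). The call of miR-32-3p was also lost with library totals (2.25) and with miR-30e-5p (2.32).

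**Figure D2:**
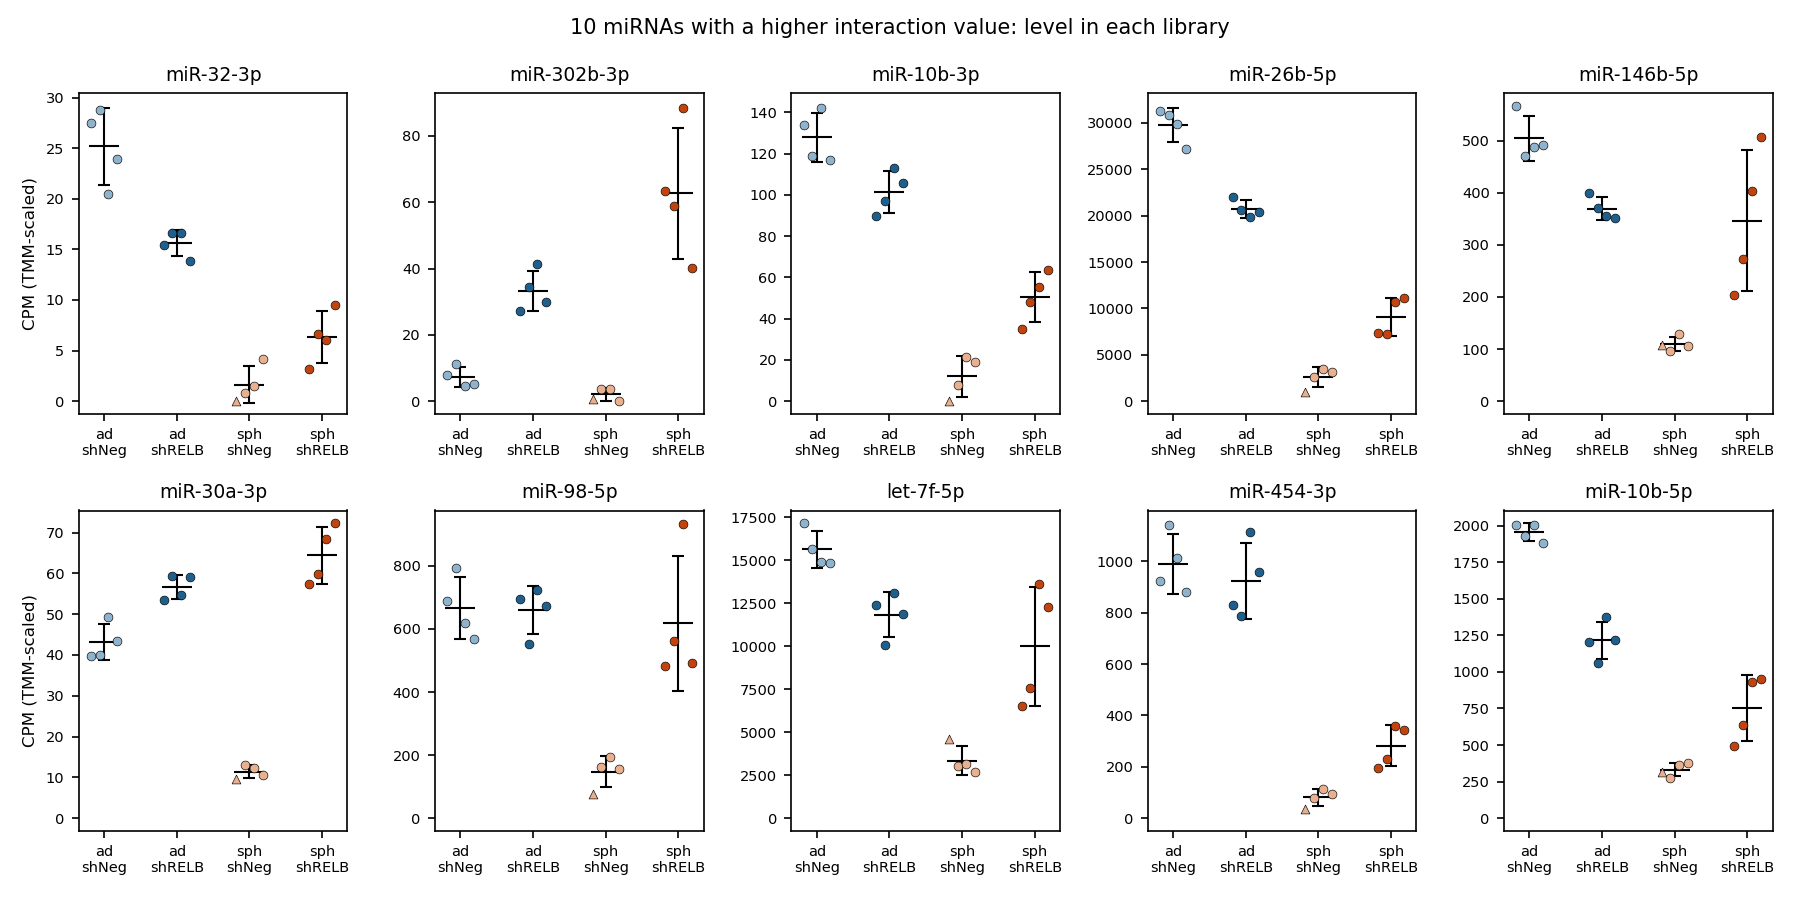
Level of the 10 higher miRNAs in TMM-scaled CPM (linear y axis) in each library of the 4 groups (ad, adherent; sph, spheroid), with the mean and SD of 4 libraries; the triangle is spheroid shNeg replicate 1. In every panel the spheroid shNeg group has the lowest mean, and for miR-26b-5p they lie at 1024 to 3493 CPM against 7266 or more in the other 3 groups.

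In the lower set, miR-509-3p, from a testis-enriched cluster on the X chromosome, fell with RELB knockdown in spheroids. In spheroids, miR-509-3p stood at 204, 159.6, 191 and 139.7 CPM in shNeg replicates 1 to 4 and at 53.8, 56.2, 39.99 and 39.9 CPM in the shRELB replicates. In adherent cells it was rare, at 5.14, 7.20, 5.56 and 7.56 CPM with shNeg and 7.36, 9.82, 6.68 and 8.66 CPM with shRELB. Spheroid shNeg libraries were above all others, and the adherent groups overlapped. The log2 fold change was -1.87 ± 0.22 in spheroids and 0.35 ± 0.24 in adherent cells. This gave an interaction value of -2.22 ± 0.32 (SE, with an FDR of 1.27e-05 in the edgeR quasi-likelihood test), and -2.14 without replicate 1.

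miR-1296-5p and the brain-enriched miR-129-5p also fell in spheroids. In spheroids, miR-1296-5p stood at 281, 238, 169.8 and 163 CPM in shNeg replicates 1 to 4 and at 60.1, 63.8, 53.9 and 101 CPM in the shRELB replicates. Its adherent libraries ran from 28.0 to 52.4 CPM with shNeg and from 53.4 to 58.6 CPM with shRELB, and its interaction value was -1.95 ± 0.33 (SE, with an FDR of 6.46e-05 in the edgeR quasi-likelihood test). In spheroids, miR-129-5p stood at 33.7, 45.1, 54.4 and 47.7 CPM in shNeg replicates 1 to 4 and at 15.8, 17.6, 7.44 and 18.1 CPM in the shRELB replicates. Its adherent levels were 1.07 to 2.23 CPM and 1.67 to 4.21 CPM. Neither miRNA overlapped between shNeg and shRELB spheroids. The value of miR-129-5p was -2.35 ± 0.58 (SE, with an FDR of 0.00395 in the edgeR quasi-likelihood test), and 4 of the 16 fits that left out 1 library put it at an FDR of 0.0109 to 0.0159 (edgeR), those without adherent shNeg replicate 1, adherent shNeg replicate 2, adherent shRELB replicate 2 or spheroid shRELB replicate 3, with values of -2.31, -2.23, -2.11 and -2.11.

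miR-193b-5p and miR-92b-5p rose with RELB knockdown in adherent cells, while their spheroid change did not pass the test (FDR 0.457 and 0.855, edgeR). Without spheroid shNeg replicate 1 the spheroid log2 fold change of miR-92b-5p was 0.99 (FDR 0.00311, edgeR) and that of miR-193b-5p -0.31 (FDR 0.454, edgeR). In spheroids, miR-193b-5p stood at 55.0, 64.9, 55.9 and 48.4 CPM in shNeg replicates 1 to 4 and at 48.0, 47.9, 31.6 and 53.9 CPM in the shRELB replicates. Its adherent levels went from 1.82, 1.33, 1.79 and 1.20 CPM with shNeg to 4.18, 7.48, 6.34 and 7.85 CPM with shRELB. Spheroid libraries overlapped and adherent ones did not, with a log2 fold change of -0.30 ± 0.29 and 2.03 ± 0.36. The interaction value was -2.33 ± 0.47 (SE, with an FDR of 5.42e-04 in the edgeR quasi-likelihood test), and -2.33 without replicate 1. The other arm, miR-193b-3p, was at -0.47 and not called.

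In spheroids, miR-92b-5p stood at 480.4, 161, 101 and 68.8 CPM in shNeg replicates 1 to 4 and at 196, 176, 129.7 and 373 CPM in the shRELB replicates. In adherent cells miR-92b-5p was at 9.62, 6.40, 12.2 and 11.2 CPM with shNeg and 47.7, 65.3, 60.3 and 65.0 CPM with shRELB. The spheroid groups overlapped, and shNeg replicate 1 held the highest value of all. Its interaction value was -2.47 ± 0.53 (SE, with an FDR of 0.00118 in the edgeR quasi-likelihood test), and -1.58 (FDR 0.00102, edgeR) without that replicate. The guide arm miR-92b-3p, a member of the miR-25/92 seed group, gave a steadier picture, at 224, 184, 209.8 and 238 CPM in spheroid shNeg and 326, 342, 291 and 315 CPM in spheroid shRELB. Adherent levels of miR-92b-3p went from 184, 197, 213 and 224 CPM to 826, 984, 789.9 and 854 CPM. It was higher with shRELB in both cultures without overlap, more so in adherent cells, and its interaction value was -1.502 ± 0.23 (SE, with an FDR of 2.74e-05 in the edgeR quasi-likelihood test), or -1.48 without replicate 1.

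The remaining named miRNAs of the lower set were GC-rich, and spheroid shNeg replicate 1 held their highest level. For miR-1275, this library had 857 CPM and the other 3 had 155 to 311 CPM, against 55.9 to 141 CPM in spheroid shRELB. Adherent levels were 7.47 to 11.5 CPM with shNeg and 12.2 to 20.1 CPM with shRELB. The interaction value was -2.96 ± 0.53 (SE, with an FDR of 1.56e-04 in the edgeR quasi-likelihood test), and -2.13 (FDR 2.44e-05, edgeR) without replicate 1. miR-760 stood at 949.8, 286, 185 and 164 CPM in spheroid shNeg and 107, 89.1, 58.6 and 211 CPM in spheroid shRELB, where the groups overlapped. Its interaction value was -2.59 ± 0.60 (SE, with an FDR of 0.0023 in the edgeR quasi-likelihood test), and -1.67 (FDR 0.00283, edgeR) without replicate 1. For miR-328-3p, which can also bind the RNA-binding protein hnRNP E2 as a decoy, spheroid levels were 1237, 433, 296 and 284 CPM with shNeg and 143, 176, 174 and 423 CPM with shRELB. The value was -2.13 ± 0.48 (SE, with an FDR of 0.00197 in the edgeR quasi-likelihood test), and -1.38 (FDR 0.00199, edgeR) without replicate 1.

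miR-139-3p and miR-1224-5p, a mirtron cut from its host intron by splicing, were near the floor in adherent shNeg cells. miR-139-3p was at 0.663, 0.533, 0 and 1.20 CPM there and 2.01, 4.68, 1.03 and 5.24 CPM in adherent shRELB cells. In spheroids, miR-139-3p stood at 119.5, 51.2, 26.7 and 26.0 CPM in shNeg replicates 1 to 4 and at 22.1, 17.3, 19.1 and 29.8 CPM in the shRELB replicates. Its spheroid groups overlapped. For miR-139-3p the interaction value was -3.64 ± 0.74 (SE, with an FDR of 7.39e-04 in the edgeR quasi-likelihood test), -2.93 without spheroid shNeg replicate 1 and -4.24 without adherent shNeg replicate 4. The other arm, miR-139-5p, was at -1.19 and not called. miR-1224-5p went from 2.65, 2.13, 1.79 and 1.38 CPM to 10.5, 12.9, 13.2 and 19.7 CPM in adherent cells, without overlap. In spheroids it was at 494, 129.8, 71.3 and 70.2 CPM with shNeg and 167, 149.6, 113 and 266 CPM with shRELB. The spheroid log2 fold change of miR-1224-5p was -0.13 (FDR 0.855, edgeR), and 0.96 (FDR 0.00884, edgeR) without spheroid shNeg replicate 1. The interaction value was -2.93 ± 0.67 (SE, with an FDR of 0.00212 in the edgeR quasi-likelihood test), and -1.85 (FDR 0.00198, edgeR) without replicate 1.

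**Figure D3:**
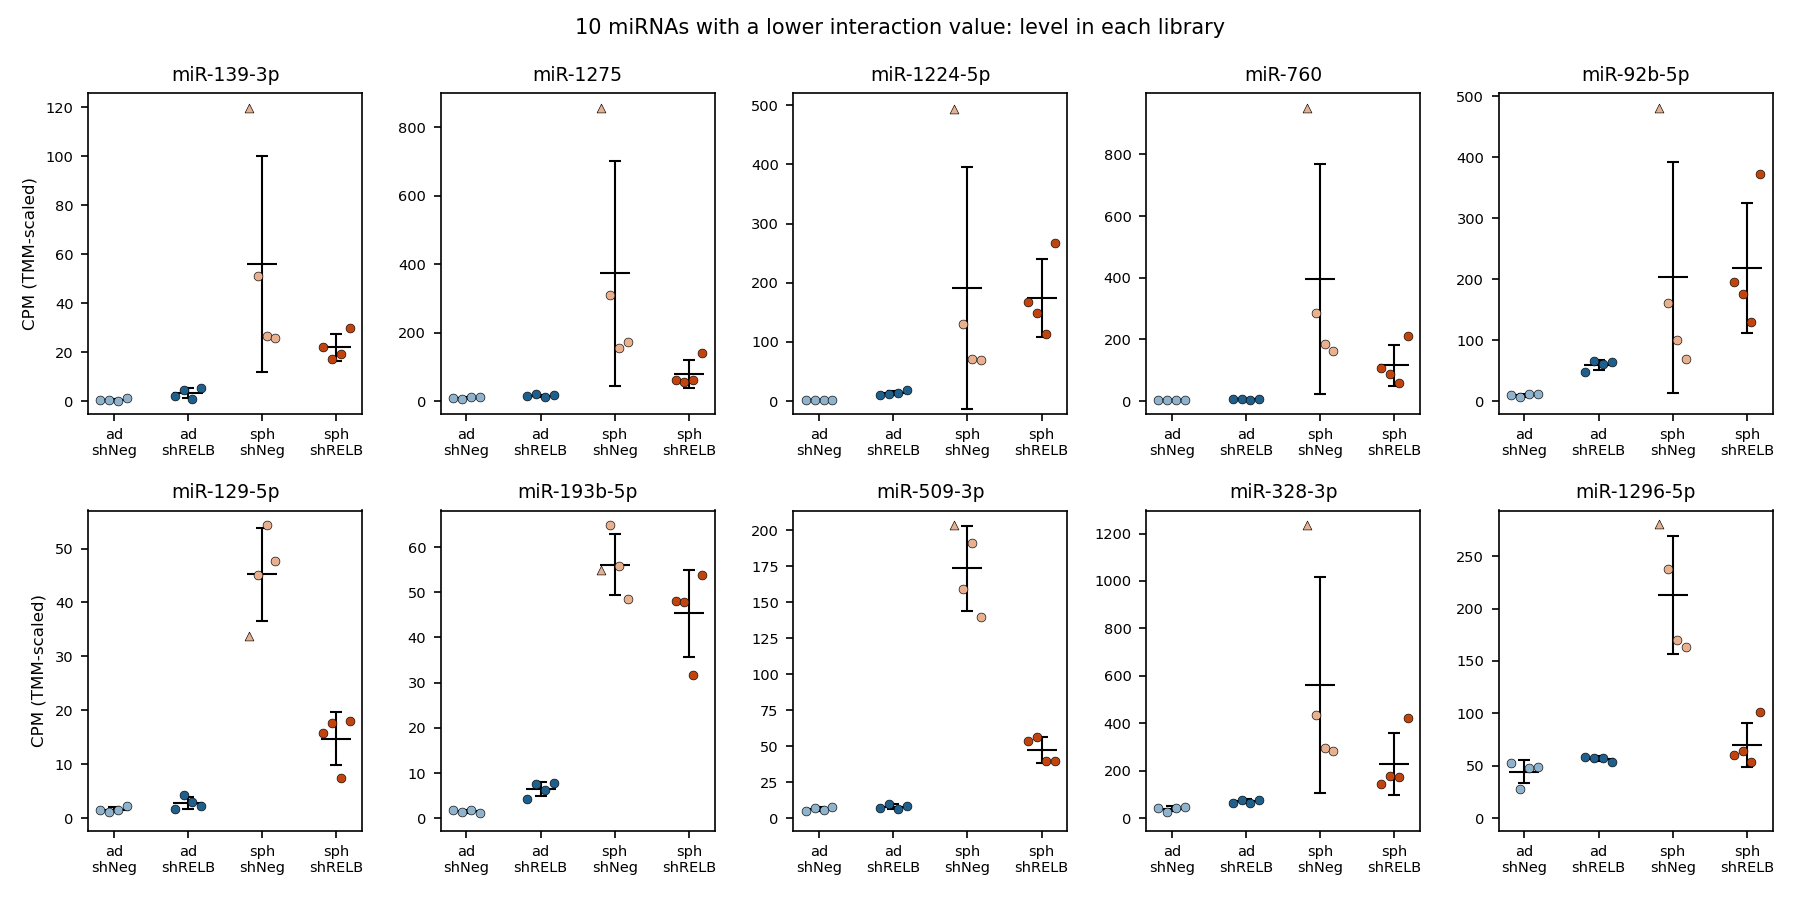
Level of the 10 lower miRNAs in TMM-scaled CPM (linear y axis) in each library of the 4 groups (ad, adherent; sph, spheroid), with the mean and SD of 4 libraries; the triangle is spheroid shNeg replicate 1. The triangle is the highest point for miR-139-3p, miR-1275, miR-1224-5p, miR-760, miR-92b-5p, miR-509-3p, miR-328-3p and miR-1296-5p, at 857 CPM for miR-1275 against 155 to 311 CPM in the other spheroid shNeg libraries.

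Of the calls lost without spheroid shNeg replicate 1, miR-1306-5p moved most, from -2.54 ± 0.65 (SE, with an FDR of 0.00575 in the edgeR quasi-likelihood test) to -1.33 (FDR 0.0408, edgeR). miR-1269a stood at 973, 408, 408 and 414 CPM in spheroid shNeg and went from -1.22 ± 0.32 (SE, with an FDR of 0.006 in the edgeR quasi-likelihood test) to -0.79 (FDR 0.0116, edgeR). let-7d-3p went from -1.19 ± 0.30 (SE, with an FDR of 0.00524 in the edgeR quasi-likelihood test) to -0.995 (FDR 0.00495, edgeR), just under a 2-fold difference, and miR-184 from -1.05 to -0.76 (FDR 0.0175, edgeR). All kept their direction. Without this library, 10 of the 77 values moved by over 1.5-fold, all of them in the lower set. They were miR-139-3p, miR-1275, miR-1224-5p, miR-760, miR-92b-5p, miR-328-3p, miR-1306-5p, miR-671-3p, miR-3180-3p and miR-3180, and miR-671-3p went from -1.76 to -1.08. Without adherent shNeg replicate 4, miR-139-3p alone moved by over 1.5-fold. Without spheroid shNeg replicate 3, the fitted value of miR-135b-5p went to 3.61 and that of miR-26a-1-3p to 7.77. Without spheroid shRELB replicate 3, miR-26a-1-3p went to 3.28 and lost the call. All rest on counts at the floor in spheroid shNeg, so these fitted values do not measure a fold change. Leaving out any of the 16 libraries in turn gave 54 to 98 calls and changed the sign of none of the 77.

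Of the 77 called miRNAs, 8 had a group at 3 counts or fewer in every library, so only a limit can be given. miR-10523-5p and miR-548l were at 0 in all spheroid shNeg libraries and at 1.05 to 3.15 CPM and 1.15 to 1.86 CPM in spheroid shRELB. Their fold change was at least 1.88-fold and at least 1.74-fold higher in spheroids, with 3 counts per library as the floor. miR-3180-3p and miR-3180 had identical counts in every library, so reads cannot be assigned to 1 of them. In adherent cells they stood at 0.497, 0, 0.359 and 0.344 CPM with shNeg and 7.19, 7.72, 7.88 and 8.26 CPM with shRELB. With all libraries and no GC correction, their interaction was at least 11.9-fold lower in spheroids, a limit that covers counting error only. Without spheroid shNeg replicate 1 the fitted log2 value was -3.46, against a limit of -3.57 on that scale. With the GC trend removed it was -2.80 for miR-3180-3p and -3.03 for miR-3180.

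Both arms of a hairpin come from the same precursor, so the second arm of each named miRNA gives the response at a separate abundance. miR-26b-3p was at 1.75 and miR-454-5p at 1.68, both with an FDR of 0.0406 (edgeR), and miR-32-5p was at 2.25 with an FDR of 0.0734 (edgeR). None of these was called, and all had the sign of the named arm. miR-146b-3p was at 0.29 beside 2.11 for its 5p arm, at levels of 9.33 to 67.0 CPM. The rare let-7f-1-3p was at 2.002 on a mean of 1.02 CPM and not called. At the miR-106b hairpin in an intron of MCM7, miR-106b-3p was called lower at -1.81 ± 0.28 (SE, with an FDR of 2.74e-05 in the edgeR quasi-likelihood test). Its 5p arm stood at 1.03 ± 0.48 and was not called.

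Shared seeds were compared within the 905 miRNAs. Only seeds with a called member were listed, so the share of all seed pairs with both members called is not given. Beside 4.64% of all miRNAs called higher, both members were called higher for 3 seeds with 2 tested members each: UCAAGUA (miR-26a-5p and miR-26b-5p), GAGAACU (miR-146a-5p and miR-146b-5p) and UUUCAGU (miR-30a-3p and miR-30e-3p). In each pair 1 member lost the call with library totals and with the GC trend removed, miR-26a-5p (1.27 and 0.89), miR-146a-5p (0.86 and 0.23) and miR-30e-3p (1.185 and 0.93). Of 10 miRNAs with the let-7 seed GAGGUAG, 4 were called higher and 1 lower. Of 5 with the miR-302 seed AAGUGCU, 2 were called higher. Of 5 with the seed AUUGCAC, shared by miR-92b-3p, miR-92a-3p, miR-25-3p, miR-363-3p and miR-32-5p, miR-92b-3p was called lower and none higher, with values from -1.502 to 2.25.

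Other miRNA groups were counted against 4.64% called higher and 3.87% called lower among all miRNAs and a median of 0.15. Of 13 NF-κB-linked miRNAs tested, 2 were called higher, miR-146a-5p and miR-146b-5p, and none lower, with a median of 0.61. miR-155-5p, a classical NF-κB target, rose by 3.84 ± 0.38 in spheroids and 3.10 ± 0.32 in adherent cells on the log2 scale and had an interaction value of 0.74 ± 0.49 (SE, with an FDR of 0.334 in the edgeR quasi-likelihood test). miR-21-5p was at 0.76 and miR-221-3p at 0.57, neither called. In the miR-23/24/27 clusters, 2 of 9 were called higher, with a median of 1.06. These were miR-23b-3p (1.84 ± 0.31, SE, edgeR FDR 9.16e-05) and miR-27b-3p (1.51 ± 0.29, SE, edgeR FDR 3.61e-04), whose hairpins lie next to each other in AOPEP on chromosome 9. Both had negative log2 fold changes in adherent cells, -1.23 ± 0.22 and -1.05 ± 0.21, and kept the call under all 3 other scalings, though miR-27b-3p lost it with the GC trend removed (0.92).

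In the miR-17-92 cluster and its paralogs, 1 of 18 was called higher, miR-17-5p (1.72 ± 0.38, SE, edgeR FDR 0.0018), and 1 lower, miR-106b-3p, with a median of 0.31. The abundant members of these clusters, miR-92a-3p at -0.70 and miR-93-5p at -0.63, were not called. With library totals and with miR-30e-5p the cluster had 0 higher and 3 lower calls. miR-17-5p then lost the call (1.34 and 1.37), while miR-92a-3p (-1.09 under both) and miR-93-5p (-1.02 and -1.03) were called lower beside miR-106b-3p. Of 6 epithelial marker miRNAs, 1 was called higher and none lower, with a median of 0.92. This was miR-200c-3p, at 1642, 2387, 2168 and 1941 CPM in spheroid shNeg and 15662, 12226, 11825 and 7211 CPM in spheroid shRELB. In adherent cells miR-200c-3p was at 3129.9, 3137, 3151 and 3264 CPM with shNeg and 6786, 7940.5, 8719 and 8235 CPM with shRELB. It rose in both cultures, more in spheroids, with an interaction value of 1.21 ± 0.28 (SE, with an FDR of 0.00241 in the edgeR quasi-likelihood test), and missed the call when scaled to library totals or miR-30e-5p. Under those 2 scalings another marker, miR-205-5p, was called lower instead, at -1.11 with library totals. Of 6 p53-linked miRNAs, miR-192-5p (1.30 ± 0.33, SE, edgeR FDR 0.00496) was called higher, and miR-34a-5p was at 0.18. miR-192-5p lost the call with library totals (0.90), with miR-30e-5p (0.93) and with the GC trend removed (0.65). The p53-linked median was 0.71.

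Of 3 erythroid markers tested, miR-486-5p was called lower (-1.66 ± 0.32, SE, edgeR FDR 3.70e-04) and none higher. It made up nearly the whole summed level of the erythroid list, which was 415 to 707 CPM in spheroid shNeg, 136 to 215 CPM in spheroid shRELB, 38.1 to 45.0 CPM in adherent shNeg and 37.0 to 45.7 CPM in adherent shRELB. The defining erythroid miRNAs miR-451a and miR-144-5p had means of 1.53 and 0.918 CPM over the 16 libraries. The 5 stromal markers summed to 317 to 366 CPM in adherent shNeg, 322 to 360 CPM in adherent shRELB, 114 to 161 CPM in spheroid shNeg and 199 to 315 CPM in spheroid shRELB. None was called, with a median of 0.64, and miR-143-3p was called higher without spheroid shNeg replicate 1, at 1.12 (FDR 0.00764, edgeR). No call was made among the 3 leukocyte markers tested (median -0.13), or for miR-122-5p (-0.27). With the GC trend removed, miR-122-5p was called lower, at -1.16 (FDR 0.00746, edgeR).

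No miRNA was called in 7 further groups. These were the miR-99/100 and miR-125 clusters (9 tested, median 0.30), the miR-29 family (6, 0.78), the miR-181 family (8, 0.24), the miR-183, miR-96 and miR-182 cluster (5, 0.85), the miRNAs of the GABRE and GABRA3 host genes (6, -0.61), the imprinted-locus miRNAs (8, -0.46) and both arms of miR-210 (2, -1.52). Of these, miR-183-5p (0.83 ± 0.21, SE, edgeR FDR 0.00533) and miR-483-3p (-0.97 ± 0.26, SE, edgeR FDR 0.00842) passed the FDR but not the 2-fold threshold. With library totals, miR-224-5p (-1.23) and miR-767-5p (-1.14) of the GABRE and GABRA3 group and both arms of miR-483 of the imprinted group were called lower. miR-224-5p and miR-767-5p were also called lower with miR-30e-5p (-1.24 and -1.17) and with the GC trend removed (-1.74 and -1.13). miR-483-3p was also called lower with median-ratio factors (-1.10) and with miR-30e-5p (-1.44).

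The study chose 9 candidate miRNAs on these samples, so their counts are not independent evidence. Of the 9, miR-30a-3p, miR-30a-5p and miR-200c-3p were called higher and none lower, with a median of 0.68. Over all miRNAs, 4.64% were called higher and 3.87% lower, with a median of 0.15. miR-335-5p stood at 0, 33.6, 27.2 and 45.6 CPM in spheroid shNeg and 16.3, 16.6, 12.6 and 13.2 CPM in spheroid shRELB. In adherent cells it went from 52.9, 74.1, 69.9 and 54.8 CPM to 21.8, 13.6, 28.6 and 22.2 CPM. Its spheroid groups overlapped through replicate 1, which had no count, and its interaction value was 0.68 ± 0.66 (SE, with an FDR of 0.524 in the edgeR quasi-likelihood test). miR-452-5p was at -0.65 ± 0.62 (SE, with an FDR of 0.514 in the edgeR quasi-likelihood test), and turned to 0.38 without replicate 1, after log2 changes of -1.97 ± 0.48 in spheroids and -1.32 ± 0.40 in adherent cells. miR-34a-5p, miR-155-5p, miR-105-5p and miR-105-3p were not called either.

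The interaction value moved with the GC content of the mature miRNA, which could be read for 795 of the 905 (87.8%). The called higher miRNAs had a median GC content of 40.9%, with 35 of 37 at 50% or under, and the called lower ones 63.6%, with 26 of 32 above 50%, against 54.5% for all. Over all miRNAs the median interaction value was 1.178 at 40% GC or under, 0.58 from 40 to 50%, -0.05 from 50 to 60%, -0.50 from 60 to 70% and -1.04 above 70%. Without spheroid shNeg replicate 1 the same medians were 0.99, 0.43, -0.12, -0.57 and -0.44. Counts on miRNAs with over 60% GC made up from 11.03% to 12.8% of the 4 spheroid shNeg libraries and 4.91% to 7.76% of the other 20 libraries. The part of this shift in the calls was examined with a smooth GC trend removed from each library, an alternative chosen after seeing the data. The calls then numbered 42, 10 higher and 32 lower, and 26 of the 69 called miRNAs with a GC value kept the call.

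Among the miRNAs named, those that kept the call after the GC correction included miR-23b-3p (1.30), miR-26b-5p (1.10), miR-146b-5p (1.183), miR-30a-3p (1.63), miR-139-3p (-2.92), miR-1275 (-1.83), miR-129-5p (-2.30), miR-193b-5p (-2.14), miR-509-3p (-2.77), let-7b-5p (-2.29) and let-7d-3p (-1.82). let-7f-5p went to 0.02, miR-98-5p to 0.68, let-7a-5p to -0.26 and miR-454-3p to 0.72, and none of these was called. miR-302b-3p (1.54), miR-32-3p (1.31) and miR-10b-3p (1.55) also lost the call, so that of the 10 higher miRNAs named, 9 had a GC value and 6 of them lost it. miR-92b-5p, miR-328-3p, miR-760 and miR-1224-5p kept their sign at -1.19, -1.21, -1.51 and -1.93 and lost the call. Of the further called miRNAs given above, let-7g-5p (0.49), miR-26a-5p (0.89), miR-146a-5p (0.23), miR-30a-5p (0.18), miR-30c-5p (0.79), miR-30e-3p (0.93), miR-302a-5p (0.10), miR-27b-3p (0.92), miR-17-5p (1.11), miR-200c-3p (0.32), miR-192-5p (0.65), miR-92b-3p (-0.94) and miR-671-3p (-0.94) lost the call as well. Whether the GC shift arose in the cells or in the libraries was not tested.

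**Figure D4:**
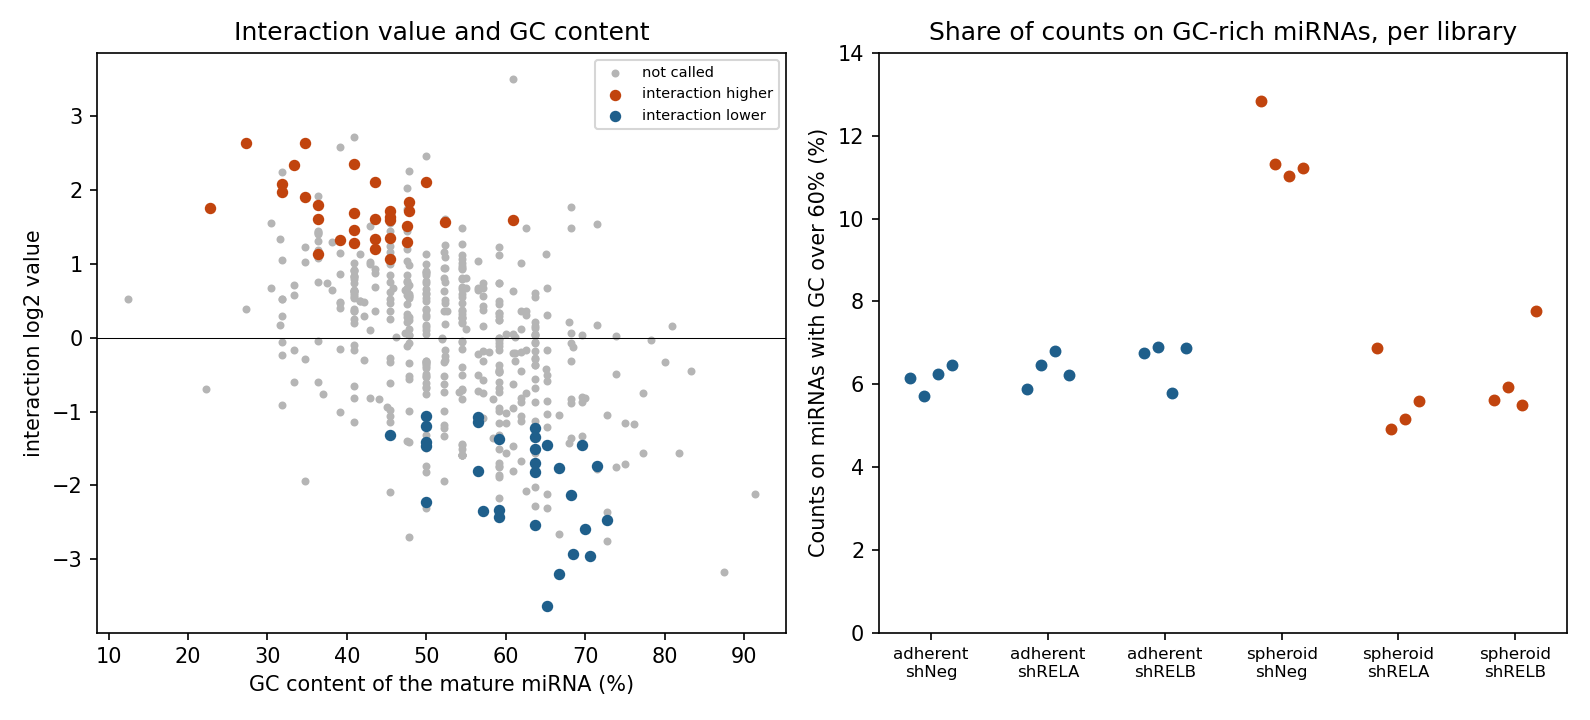
Left, interaction log2 value (y axis) against GC content in percent (x axis) for the 492 miRNAs with a GC value and no group at 3 counts or fewer in every library. Right, percent of counts on miRNAs with over 60% GC in each of the 24 libraries; the 4 spheroid shNeg libraries lie at 11.03% to 12.8% and all others at 7.76% or below.

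**Figure D5:**
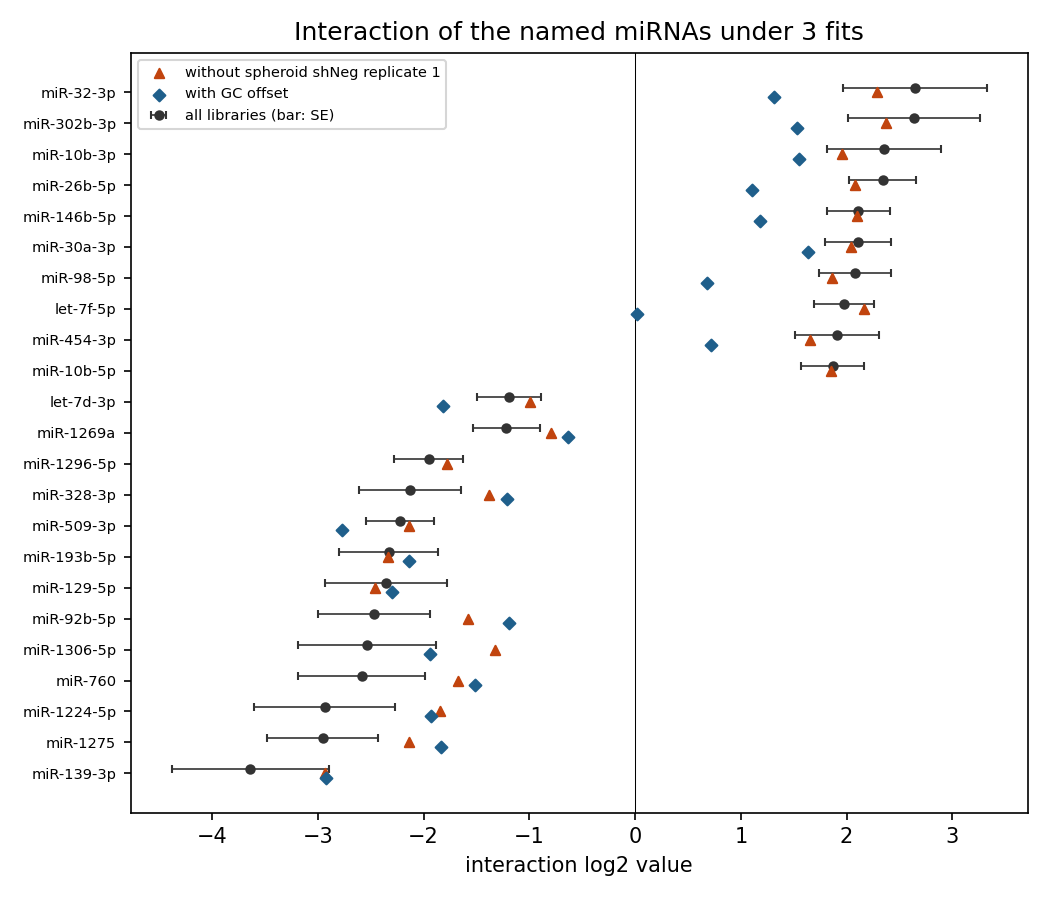
Interaction log2 value (x axis) of 23 miRNAs, the 10 higher and 10 lower of the plots by library and miR-1306-5p, miR-1269a and let-7d-3p, with all libraries (circle, bar is the SE), without spheroid shNeg replicate 1 (triangle) and with the GC correction (diamond, where a GC value was had). For these 23 all points keep their side of 0, and let-7f-5p comes closest to it at 0.02.

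To set the RELB response against that of RELA without the shNeg libraries, the change from shRELA to shRELB in adherent cells was subtracted from that in spheroids. This comparison uses the shRELB libraries of the first one. Of 905 miRNAs, 13 were called (1.44%), 2 higher and 11 lower, and 119 had an unadjusted p-value below 0.05. Of the 77 miRNAs called in the first comparison, 4 were also called here and 73 were not. For those 73, a response to RELB knockdown that differs from the response to RELA knockdown was not shown. Of the 13, miR-509-3p had the smallest FDR. It was at 202, 152, 195 and 187 CPM in spheroid shRELA and 53.8, 56.2, 39.99 and 39.9 CPM in spheroid shRELB, and at 2.81, 2.48, 2.86 and 3.14 CPM in adherent shRELA. The shRELA spheroids overlapped the shNeg spheroids and the shRELB spheroids lay below both. The RELB minus RELA value was -3.46 ± 0.33 (SE, with an FDR of 4.67e-09 in edgeR).

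miR-10b-5p was at 370.2, 422, 375 and 440.4 CPM in spheroid shRELA and 1814, 1656, 1049.7 and 2554 CPM in adherent shRELA, and its RELB minus RELA value was 1.45 ± 0.30 (SE, with an FDR of 0.00355 in edgeR). In spheroids the shRELB libraries were all higher than the shRELA libraries. miR-92b-3p was at 199, 169, 141 and 155 CPM in spheroid shRELA and 185, 206, 179.6 and 205 CPM in adherent shRELA, with a value of -1.21 ± 0.23 (SE, with an FDR of 0.00355 in edgeR), and miR-184 had a value of -1.37 ± 0.28 (SE, with an FDR of 0.00355 in edgeR). For miR-335-5p, 1 of the 9 candidates, the shRELA libraries were at 7.97, 13.7, 3.58 and 6.46 CPM in spheroids and 145, 96.2, 62.7 and 234 CPM in adherent cells. The value was 3.55 ± 0.69 (SE, with an FDR of 0.00355 in edgeR), the highest of those called. The other called miRNAs were all lower, miR-205-5p (-1.21), miR-378a-3p (-1.15), miR-378a-5p (-1.16), miR-187-3p (-1.49), miR-4683 (-2.38), miR-508-3p (-3.65) and miR-517a-3p and miR-517b-3p, whose counts were identical and at the floor. Apart from members of lists given above, these were named after their values were seen. let-7f-5p (0.76), miR-26b-5p (0.54), miR-146b-5p (0.08), miR-30a-3p (0.48) and miR-302b-3p (1.29) were not called, so a difference between RELB and RELA knockdown in how far the culture mattered was not shown for them. With shRELA in place of shRELB and the same shNeg libraries, the interaction values were 1.22, 1.80, 2.04, 1.62 and 1.35 in that order. The edgeR FDR was 0.00274, 1.64e-04, 2.92e-05, 4.14e-04 and 0.171. Of the lower set, miR-1275 was at -3.18 and miR-760 at -3.52 (both FDR 1.22e-04, edgeR), whereas miR-509-3p was at 1.24 (FDR 0.00871, edgeR). Of the miRNAs plotted by library, miR-509-3p alone had a RELA value opposite in sign to its RELB value. The RELA values of miR-98-5p (1.61), miR-92b-5p (-2.54), miR-193b-5p (-2.30), miR-328-3p (-2.16) and miR-1296-5p (-1.83) also had an FDR below 0.01 (edgeR). Those of miR-32-3p, miR-10b-3p, miR-10b-5p, miR-454-3p, miR-139-3p, miR-1224-5p and miR-129-5p did not. The counts of the RELB minus RELA comparison hung on single libraries, since 1 miRNA was called without spheroid shRELB replicate 3. The calls numbered 7 without any 1 of adherent shRELA replicate 2, adherent shRELB replicate 1, adherent shRELB replicate 2, spheroid shRELA replicate 1 or spheroid shRELB replicate 4.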

How the data were processed

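miRNAs were sequenced from 24 OV90 libraries, 6 groups of 4, mapped to groups by the labels. According to the study's methods, the authors trimmed reads with Cutadapt and quantified them with miRDeep2 against miRBase, and deposited 1 table of estimated counts per mature miRNA. Its name says CPM, but its columns sum to different totals and were read as counts. Of non-zero values, 3.04% were not whole (in 84 miRNAs) and were rounded. Whether duplicate molecules were collapsed is not given in the sources used here. Only miRNAs reaching 1 CPM in 4 or more libraries entered, were scaled by TMM and fitted over all 24 libraries with edgeR 4.0.16 (R 4.3.3, quasi-likelihood). A call required a Benjamini-Hochberg FDR below 0.01 and a difference over 2-fold. Named miRNAs were the 10 highest and 10 lowest called both with and without spheroid shNeg replicate 1 (mean of at least 10 CPM, no group at 3 counts or fewer in every library), up to 3 a direction that lost the call without it, 2 a direction with a limit, the other hairpin arms, examples from the lists and the study's 9 candidates. Any other miRNA was named after its values were seen. Members and lists were chosen with earlier results of these data known. Alternatives covered filter, scaling, limma 3.58.1, DESeq2 1.42.0, a replicate block, thinning and left-out libraries, and, after seeing the data, a GC offset (loess span 0.75). Depth was 959134 to 8283546 counts per library. The fit was also run on simulated counts that had no GC trend and no outlying library, so that check does not bear on either.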

Additional observations from a re-analysis of the deposited data

Results flagged for a closer look

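In 108 groups of 4 libraries for the named miRNAs, 9 had 1 library far from the other 3 by Dixon's criterion, and chance alone flags about 1 in 20. Spheroid shNeg replicate 1 was that library in 5, with 494 CPM of miR-1224-5p (70.2 to 129.8 in the other 3), 949.8 CPM of miR-760 (163.6 to 286), 1237 CPM of miR-328-3p (284 to 433), 102 CPM of miR-1306-5p (11.8 to 24.4) and 973 CPM of miR-1269a (408 to 414). Spheroid shRELB replicate 4 was high, with 141 CPM of miR-1275 against 55.9 to 62.8 and 423 CPM of miR-328-3p against 143 to 176. Adherent shNeg replicate 2 was low for miR-1296-5p, at 28.0 CPM against 48.2 to 52.4, and adherent shRELB replicate 3 was low for miR-760, at 3.42 CPM against 7.03 to 7.65.

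By the interaction test of edgeR, with TMM scaling and no GC correction, the RELB knockdown effect differed between spheroid and adherent culture for each of the following. Interaction values on the log2 scale were 2.64 for both miR-32-3p and miR-302b-3p, 2.36 for miR-10b-3p, 2.34 for miR-26b-5p, 2.11 for both miR-146b-5p and miR-30a-3p, 2.08 for miR-98-5p, 1.98 for let-7f-5p, 1.90 for miR-454-3p and 1.87 for miR-10b-5p. On the lower side they were -3.64 for miR-139-3p, -2.96 for miR-1275, -2.93 for miR-1224-5p, -2.59 for miR-760, -2.47 for miR-92b-5p, -2.35 for miR-129-5p, -2.33 for miR-193b-5p, -2.22 for miR-509-3p, -2.13 for miR-328-3p and -1.95 for miR-1296-5p. The values -2.54 for miR-1306-5p, -1.22 for miR-1269a and -1.19 for let-7d-3p lost the call without spheroid shNeg replicate 1. The limits were at least 1.88-fold higher for miR-10523-5p and at least 1.74-fold higher for miR-548l, both under the 2-fold threshold. With all libraries they were at least 11.9-fold lower for miR-3180-3p and miR-3180, which covers counting error only. With the GC trend removed, miR-32-3p, miR-302b-3p, miR-10b-3p, miR-98-5p, let-7f-5p, miR-454-3p, miR-1224-5p, miR-760, miR-92b-5p and miR-328-3p lost the call. So did miR-1306-5p, miR-1269a, miR-10523-5p and miR-548l.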

How the results depend on the processing

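The 77 interaction calls became 129 at an FDR below 0.05, 42 with the GC offset and 46 with the GC offset and without spheroid shNeg replicate 1, and lay between 56 and 107 under the other planned settings. Leaving out 1 library gave 54 (without spheroid shRELB replicate 3) to 98 (without spheroid shNeg replicate 4). Offsets were fitted to fewer miRNAs, and the same miRNAs without an offset gave 65. The 13 calls of the RELB minus RELA comparison became 24 with scaling to miR-30e-5p, 6 with limma on log2(CPM + 1), 30 with voom and library weights, 23 with DESeq2, 31 with the edgeR likelihood ratio test, 29 with only the 16 libraries of the contrast, 8 after thinning, 33 at an FDR below 0.05, 4 for miRNAs with a GC value and no offset, and 31 with the GC offset and without spheroid shNeg replicate 1. Leaving out 1 library gave 1 to 15. The causes were not tested. For 27 miRNAs (the 20 plotted by library, the 3 that lost the call without spheroid shNeg replicate 1 and 4 given as limits), 822 of 935 values under alternatives stayed on the same side of the call, 113 lost it and 0 changed sign. Of the 20 plotted, miR-760, miR-92b-5p and miR-328-3p lost the call with only the 16 libraries of the contrast. After thinning to the smallest library, miR-32-3p, miR-302b-3p, miR-139-3p, miR-1224-5p, miR-129-5p and miR-193b-5p lost it. Outside these 27, let-7a-5p turned to -0.26 with the GC offset and miR-452-5p, not called, from -0.65 to 0.38 without spheroid shNeg replicate 1. With the replicate block the counts were 72 and 11. Of 24 pairs of same-numbered libraries, 8 had a correlation of deviations over 0.1 (range -0.396 to 0.36, 335 miRNAs). Differently numbered libraries were not compared, so this count cannot decide whether the libraries are paired. Depth was lowest in spheroid shNeg, where 3 counts are up to 2.29 CPM, so lower levels there were not detectable.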
